A study of Mus musculus with 64 samples.

Results

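The 7 genes described here, Hk1, Hk2, Hk3, Gckr, Khk, Slc2a1 and Slc2a4, act where hexoses enter a cell and are first phosphorylated, out of 18193 genes that had a probe set of their own on the array. They were chosen with their levels in 4 tissues and their high against low triglyceride values already known, so those values are given as a description and carry no test. RNA came from liver, pancreas, muscle (soleus with gastrocnemius) and adipose tissue (inguinal, epididymal, retroperitoneal, perirenal and subscapular pads pooled) of 16 male TALLYHO x C57BL6 F2 mice killed at 24 weeks of age on standard chow. The tissues of 8 high triglyceride mice and of 8 low triglyceride mice were put on 1 array each, 64 arrays in all. The mice were picked from the upper and lower ends of the plasma triglyceride distribution, overtly diabetic mice were left out by the study, and each F2 mouse carries its own mixture of the parental genomes. In the paper, the high triglyceride mice also had heavier summed, inguinal and subscapular fat pads. Their cholesterol was higher at some ages, while body weight at 24 weeks did not differ significantly. These traits and triglyceride cannot be told apart in a comparison of the groups. Values are log2 signals made by gcRMA, which corrects each probe for background by its base composition.

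Glucose crosses the cell membrane through facilitative carriers. Slc2a1 (GLUT1) serves basal uptake in many cells and Slc2a4 (GLUT4) is the carrier that insulin brings to the surface of muscle fibres and adipocytes. Hexokinases then trap glucose as glucose 6-phosphate: Hk1 is the broadly expressed form, Hk2 the main form of muscle and fat that responds to insulin, and Hk3 a form known from leukocytes. In the hepatocyte this step is run by glucokinase, which the protein encoded by Gckr binds and holds in the nucleus. Khk encodes ketohexokinase, which phosphorylates fructose to fructose 1-phosphate, on a route that bypasses the control point of glycolysis. Fructose is a known driver of fat synthesis in liver.

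By RefSeq coordinates of GRCm38.p6, Slc2a1 lies at chr4:119108745-119137330, Hk2 at chr6:82725025-82774454, Hk1 at chr10:62268855-62379920, Slc2a4 at chr11:69942286-69948216 and Hk3 at chr13:55005985-55021475. Khk at chr5:30921436-30931248 and Gckr at chr5:31297266-31327302 are neighbours, with 366 kb between them. The RefSeq promoter table held an entry for 6 of the 7 genes. The sequences of Khk and Hk2 are given because these are the members with the 4 differences of over 0.5 log2 units between the triglyceride groups. The 30 bases of the Khk promoter at chr5:30921476-30921505 on the plus strand hold the E-box CACGTG, in capitals, whose first base is 71 bases before the annotated start of the transcript in the table. Another Khk transcript starts upstream of these bases, at the first base of the gene. The 250 bases before the start of Hk2, at chr6:82774455-82774704 on the minus strand, hold GC boxes, CCAAT boxes and 1 TGACGT, the core of a cAMP response element, all in capitals in either orientation.
Khk: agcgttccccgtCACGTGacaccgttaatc
Hk2: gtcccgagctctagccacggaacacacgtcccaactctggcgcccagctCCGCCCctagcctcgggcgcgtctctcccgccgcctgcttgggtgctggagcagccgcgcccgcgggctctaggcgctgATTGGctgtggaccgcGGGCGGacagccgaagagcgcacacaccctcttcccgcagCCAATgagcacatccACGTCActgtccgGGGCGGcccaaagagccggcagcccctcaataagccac

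5 motifs were searched on both strands in the 250 bases before each of 32851 annotated starts. The E-box CACGTG, which reads the same on both strands, stood in 6.02% of all these windows, and among the 6 genes in the Khk window alone. The GC box GGGCGG was in 32.7% of windows and was found 3 times before Hk2, 2 times before Slc2a1 and 1 time before Khk. The CCAAT box, CCAAT, was in 33.8% of windows, with 2 matches before Hk2 and 1 before Gckr. The annotated start used for Gckr lies downstream of the first base of the gene, so that match falls within the gene. The letters TGACGT were in 6.47% of windows and among these genes matched only before Hk2. The TATA box TATAAA was in 12.4% of windows and in none of those of the 6 genes. Neither window of Hk1 and no window of Hk3 held any of the 5 motifs. A match describes the letters only.

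Before the levels are read, 1 array needs naming. The array labelled liver, low triglyceride replicate 7, correlated with the other liver arrays at a median r of 0.829, against 0.989 or more for each other liver array, and with adipose arrays at a median of 0.905. It goes against its label. Albumin (Alb) was 6.50 on it, against 15.62 to 15.82 on the other 15 liver arrays, while adiponectin (Adipoq) was 14.23, against 2.32 to 4.41, Ucp1 was 13.56, against 2.33 to 4.44, and Ckm was 11.34, against 2.33 to 7.40. Of the genes described here, Hk1 (6.18), Hk2 (9.61) and Slc2a4 (8.74) lay above, and Gckr (2.63) and Khk (4.94) below, every other liver array. Slc2a1 (7.48) and Hk3 (2.36) lay within the range of the other livers and below that of adipose tissue. It was left out of all liver values, and values with it are given where they differ.

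The lowest value on an array was set by tissue, 2.35 in pancreas, 2.30 in liver, 2.29 in muscle and 2.24 in adipose tissue, so the tissues appear to have been normalized apart from each other. Levels across tissues are therefore described, not tested, and no gene's level is set against another gene's. A mean log2 value of 4 or more was taken as measured, which held for 16 of the 28 pairs of gene and tissue. Khk in pancreas, at a mean of 4.43, lay just inside this line and Hk1 in liver, at 3.30, lay just outside it. gcRMA gave identical values to several arrays at low signal, for example 4.17 on 3 pancreas arrays for Khk, so a low range can rest on few distinct values.

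The tissue pattern was sharp for most of the genes. Gckr was a liver transcript, at 10.07 ± 0.26 (SD, n = 15), and stood at the lowest value of the tissue in all 16 muscle and all 16 adipose arrays and at 2.35 in pancreas. Khk was highest in liver at 10.64 ± 0.43 (SD, n = 15), followed by muscle at 6.16 ± 0.28, adipose tissue at 5.97 ± 0.58 and pancreas at 4.43 ± 0.36 (SD, n = 16 each). Liver stood 4.48 log2 units above muscle with no overlap of arrays, whereas muscle and adipose tissue overlapped, as did adipose tissue and pancreas. When all arrays were quantile normalized together, pancreas moved above adipose tissue by 1.67 log2 units, so the order of the lower tissues is not fixed by these data.

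Slc2a4 followed the insulin-responsive tissues. It read 11.30 ± 0.16 in muscle and 8.75 ± 0.46 in adipose tissue (SD, n = 16 each), 2.55 log2 units apart with no overlap, and lay at the lowest value in all 15 liver arrays. Hk2 had the same order, with 11.10 ± 0.44 in muscle and 9.10 ± 0.62 in adipose tissue (SD, n = 16 each). Here the highest adipose array, at 10.30, passed the lowest muscle array, at 10.24. Liver and pancreas held Hk2 at 2.91 and 2.54, below the line taken as measured.

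Hk1 was highest in adipose tissue at 7.88 ± 0.46, then muscle at 4.91 ± 0.26 (SD, n = 16 each), with no overlap between them. Hk3 was measured in adipose tissue only, at 4.66 ± 1.28 (SD, n = 16), and on the probe set used was the most variable of the genes there, from 2.80 to 7.35. The second Hk3 probe set spread less there, from 3.90 to 6.13. Its means were 4.29 ± 0.33 in high and 4.53 ± 0.77 in low triglyceride mice (SD, n = 8 each). Slc2a1 was the gene measured in every tissue together with Khk. Its values were 9.0 ± 0.28 in adipose tissue, 8.55 ± 0.24 in muscle and 6.35 ± 0.19 in pancreas (SD, n = 16 each) and 7.75 ± 0.46 in liver (SD, n = 15), with neighbours overlapping throughout. Adipose tissue and muscle changed places when all arrays were normalized together (-0.16, adipose tissue minus muscle), so Slc2a1 has no settled highest tissue.

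**Figure D1:**
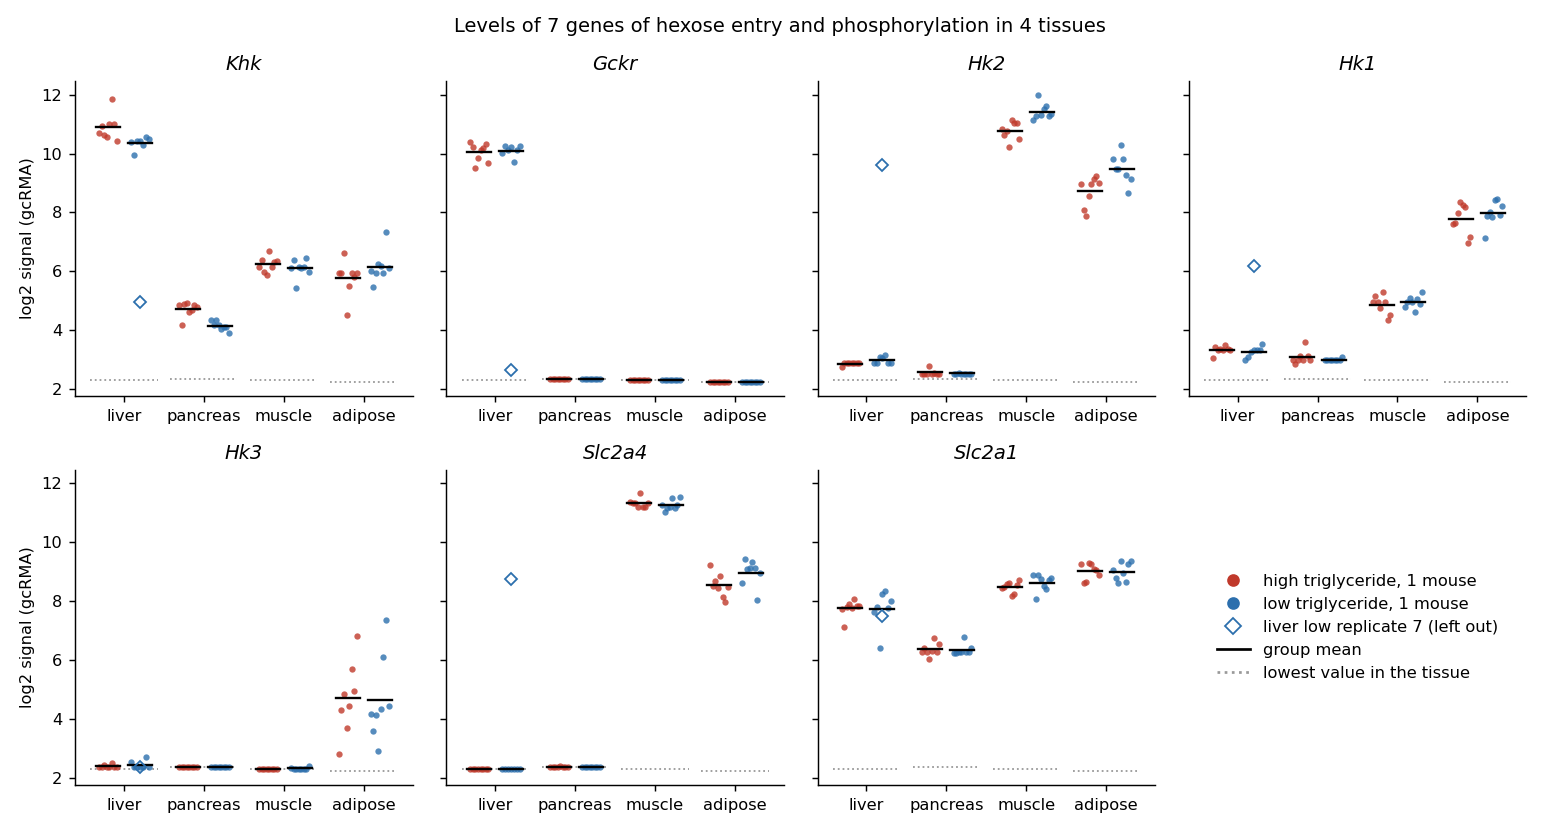
Log2 signal of each gene (y axis) in 4 tissues (x axis), 1 point per mouse, high triglyceride left of low triglyceride, with the group mean as a black line and the lowest value of the tissue dotted. Gckr is off the lowest value in liver alone, Hk2 and Slc2a4 are high in muscle and adipose tissue, and the open diamond, liver low replicate 7, sits near 9.61 for Hk2 where the other livers are at most 3.16.

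Between the triglyceride groups, Khk was higher in pancreas and in liver of high triglyceride mice, and Hk2 was lower in muscle and in adipose tissue. Over all 45037 probe sets tested, limma called 0 in each of the 4 tissues at an adjusted p of 0.05 (percent called 0), with 2413 probe sets at an unadjusted p under 0.05 in liver, 2080 in adipose tissue, 1848 in muscle and 1003 in pancreas. A plain F test without moderation also called 0 in every tissue, with 2264 at an unadjusted p under 0.05 in liver, 1940 in adipose tissue, 1745 in muscle and 925 in pancreas. These 0 calls take in the 7 genes, which were chosen with this contrast known, so the count is a background and no test of them. In none of the 16 measured pairs were the groups free of overlap, a state found in 0.112% of the genes measured in liver, 0.0322% of those of pancreas, 0.058% of those of muscle and 0.0781% of those of adipose tissue.

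Khk in pancreas had the lowest, median and highest values of 4.17, 4.82 and 4.93 in high triglyceride mice, against 3.90, 4.13 and 4.33 in low triglyceride mice. In 7 of 8 high triglyceride mice the value lay above every low triglyceride mouse, and the other, replicate 2, sat at 4.17, within the low range. The means were 4.72 ± 0.25 and 4.14 ± 0.15 (SD, n = 8 each), a difference of 0.58 ± 0.10 (SE), or 1.5-fold. It was the 47th highest difference of the 6215 genes measured in pancreas. These are low signals, 2.08 log2 units on average above the lowest value of the tissue.

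Islet markers, like Khk, had higher group means in pancreas of high triglyceride mice. All 5 (Ins2, Gcg, Sst, Iapp and Chga) had a higher mean in high triglyceride mice, and their summed level, the mean log2 of the list, had lowest, median and highest values of 9.89, 10.18 and 11.45 in high triglyceride mice, against 9.32, 9.77 and 10.76 in low triglyceride mice. None of the 5 islet genes was below a mean log2 of 4. The median of Gcg was lower in high triglyceride mice, at 11.07 against 11.30. Of all 6215 genes measured in pancreas, 64.4% had a higher mean in high triglyceride mice. Acinar markers (5 genes, 4 of them higher in mean) were at 16.29 to 16.37 in high and 16.21 to 16.33 in low triglyceride mice. With the groups centred, the relation of Khk with the islet list over the 16 mice was not called (r = -0.02, rho = -0.14, permutation p = 0.953, adjusted p = 0.953, r = 0.05 without the 2 mice farthest from the median). Its part in the difference of Khk between the groups was not tested further. In whole tissue, fewer cells of a type and less RNA per cell cannot be told apart.

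Khk in liver had lowest, median and highest values of 10.42, 10.83 and 11.86 in high triglyceride mice, against 9.96, 10.42 and 10.56 in low triglyceride mice without replicate 7. Of the 8 high triglyceride livers, 7 lay above all 7 low triglyceride livers, and replicate 8, at 10.42, lay among them. The means were 10.89 ± 0.45 (SD, n = 8) and 10.36 ± 0.20 (SD, n = 7), a difference of 0.52 ± 0.18 (SE), or 1.44-fold. With the left-out array the difference would read 1.20. Hepatocyte markers (4 genes) were at 15.61 to 15.75 in high and 15.66 to 15.79 in low triglyceride livers.

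Elsewhere Khk differed by less than 1 within-group SD. In muscle the values ran over 5.88, 6.23 and 6.68 (lowest, median, highest) in high triglyceride mice, against 5.43, 6.13 and 6.45 in low triglyceride mice, a difference of 0.14 with wide overlap. In adipose tissue they were 4.52, 5.94 and 6.63 in high triglyceride mice, against 5.47, 6.07 and 7.33 in low triglyceride mice, a difference of -0.38. It was -0.21 without low triglyceride replicate 7 and -0.20 without high triglyceride replicate 4. The same 5.95 was given to 5 of the 16 adipose arrays. Over mice, the relation of Khk in liver with Khk in pancreas was not called (r = -0.27, rho = -0.27, n = 15, permutation p = 0.359, adjusted p = 0.693, -0.47 without the 2 farthest mice).

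Hk2 in muscle had lowest, median and highest values of 10.24, 10.80 and 11.14 in high triglyceride mice, against 11.13, 11.32 and 11.98 in low triglyceride mice. The ranges touched by 1 mouse: replicate 5 of the high group, at 11.14, lay above replicate 1 of the low group, at 11.13, and the other 7 high triglyceride mice lay below every low triglyceride mouse. Means were 10.77 ± 0.31 and 11.43 ± 0.27 (SD, n = 8 each), a difference of -0.66 ± 0.14 (SE), or 1.58-fold lower in high triglyceride mice. Of 8627 genes measured in muscle, it was the 23rd lowest difference.

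Markers of other organs moved with the groups in muscle. The hepatocyte list (4 genes, 3 of them higher in mean, Apoa1 below 4) had lowest, median and highest values of 2.68, 5.94 and 8.45 in high triglyceride mice, against 3.44, 4.00 and 5.76 in low triglyceride mice, and the adipocyte list (4 genes, all higher in mean, Lep and Retn below 4) had 3.59, 5.29 and 6.53 in high triglyceride mice, against 4.04, 4.57 and 5.31 in low triglyceride mice. The acinar list (5 genes, all higher in mean, 4 of them below 4 and Cela3b above it) had 2.54, 3.89 and 4.83 in high triglyceride mice, against 2.51, 2.54 and 3.60 in low triglyceride mice. These lists overlapped between the groups, and their part in the difference of Hk2 was not tested beyond the relations given here. Without the 1 muscle array whose hepatocyte list reached 8, a step added after the data were seen, the difference of Hk2 was -0.67. Fast fibre markers (6 genes) were at 15.38 to 15.49 in high and 15.32 to 15.46 in low triglyceride mice. Slow fibre markers (6 genes, 5 of them higher in mean) were at 11.90 to 13.25 in high and 12.02 to 13.09 in low triglyceride mice. Hk2 had r = -0.17 (rho = -0.16) with the hepatocyte list and r = 0.38 (rho = 0.33) with the fast fibre list within the groups (n = 16, permutation p = 0.588 and 0.157, adjusted p = 0.936 for each, -0.42 and 0.24 without the 2 farthest mice). With the acinar list r was 0.06 (rho = 0.27, permutation p = 0.835, adjusted p = 0.936, 0.48 without the 2 farthest mice). With the slow fibre list it was 0.05 (rho = 0.15, permutation p = 0.858, adjusted p = 0.936, 0.12 without the 2 farthest mice). None of the 24 relations of Khk in pancreas and Hk2 in muscle with 12 marker lists passed an adjusted p of 0.05, nor an unadjusted p of 0.05, by permutation.

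In adipose tissue Hk2 had lowest, median and highest values of 7.88, 8.95 and 9.22 in high triglyceride mice, against 8.67, 9.47 and 10.30 in low triglyceride mice. The groups overlapped, with 3 high triglyceride mice below all low triglyceride mice. Means were 8.72 ± 0.50 and 9.49 ± 0.49 (SD, n = 8 each), a difference of -0.77 ± 0.24 (SE), or 1.71-fold lower. It was the 250th lowest difference of the 10237 genes measured there. The 3 lowest values, 7.88, 8.09 and 8.55, all of high triglyceride mice, came from the 3 adipose arrays richest in hepatocyte markers, whose list stood at 10.75, 10.69 and 9.93. That list (4 genes, 3 of them higher in mean, Apoa1 below 4) had lowest, median and highest values of 5.51, 7.04 and 10.75 in high triglyceride mice, against 5.65, 6.09 and 6.39 in low triglyceride mice. Without these 3 arrays, left out after the data were seen, the difference of Hk2 was -0.44, with 8.95, 8.99 and 9.22 as the lowest, median and highest of the remaining 5 high triglyceride mice, all within the low triglyceride range. The arrays left out held the 3 lowest values, all in the high group, so a smaller difference was fixed in advance. The part of the hepatocyte markers in the difference was not tested beyond the relation given below.

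**Figure D2:**
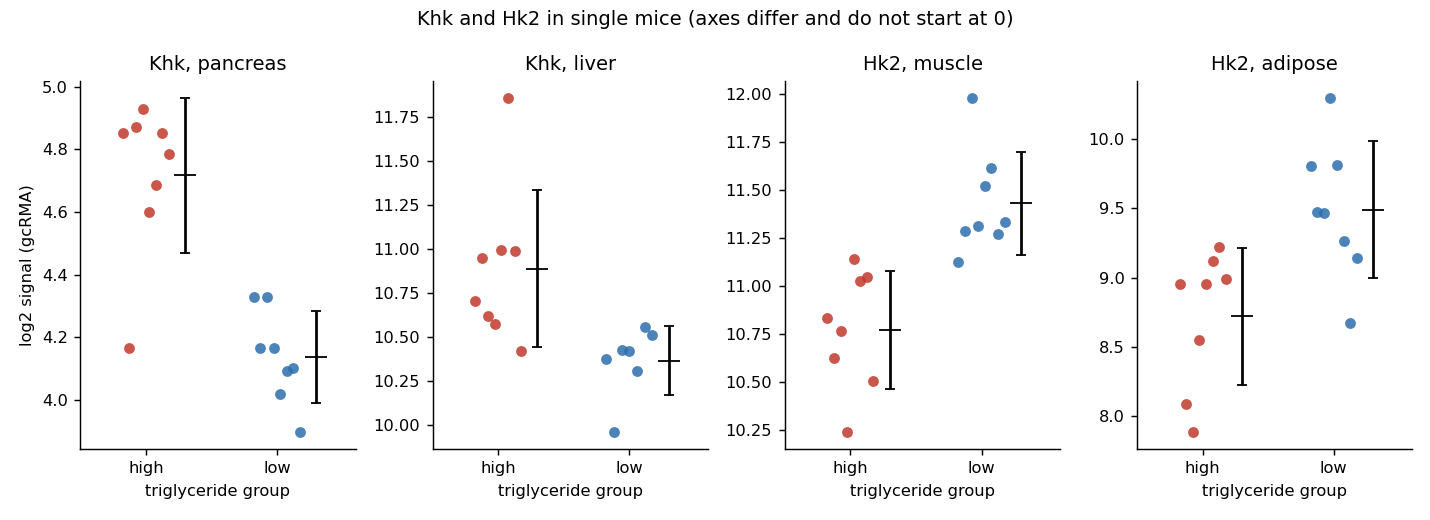
Log2 signal (y axis, not from 0) of Khk in pancreas and liver and of Hk2 in muscle and adipose tissue, 1 point per mouse, high triglyceride left, with mean and SD in black beside each group. In each of the first 3 panels 7 of 8 high triglyceride mice lie beyond the range of the low triglyceride mice.

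The carriers and the other hexokinases differed by less. Slc2a4 in adipose tissue had lowest, median and highest values of 7.97, 8.49 and 9.23 in high triglyceride mice, against 8.05, 9.11 and 9.43 in low triglyceride mice, a difference of -0.43 with almost full overlap of the ranges. Its second probe set gave -0.51. In muscle, where Slc2a4 serves most insulin-driven uptake, the values were 11.20, 11.32 and 11.68 in high triglyceride mice, against 11.02, 11.23 and 11.53 in low triglyceride mice, and the difference was 0.06.

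Slc2a1 differed by -0.14 in muscle and by 0.01 in each of the other 3 tissues, under 1 within-group SD (0.24 in muscle and 0.20 to 0.48 in the others). Its other probe sets had the opposite sign in muscle, at 0.18 and 0.02. Hk1 differed by -0.09 in muscle and -0.21 in adipose tissue, also under 1 SD. The second Hk1 probe set gave -0.07 in adipose tissue and -0.34 in muscle, where its means were low, at 2.84 in high and 3.17 in low triglyceride mice. The liver-restricted Gckr had lowest, median and highest values of 9.51, 10.14 and 10.40 in high triglyceride mice, against 9.71, 10.12 and 10.27 in low triglyceride mice, a difference of -0.06. With the left-out array this would turn to 0.87. Hk3 in adipose tissue had 2.80, 4.63 and 6.81 in high triglyceride mice, against 2.91, 4.25 and 7.35 in low triglyceride mice, a spread within each group far beyond the difference of 0.06. The second Hk3 probe set gave -0.24.

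**Figure D3:**
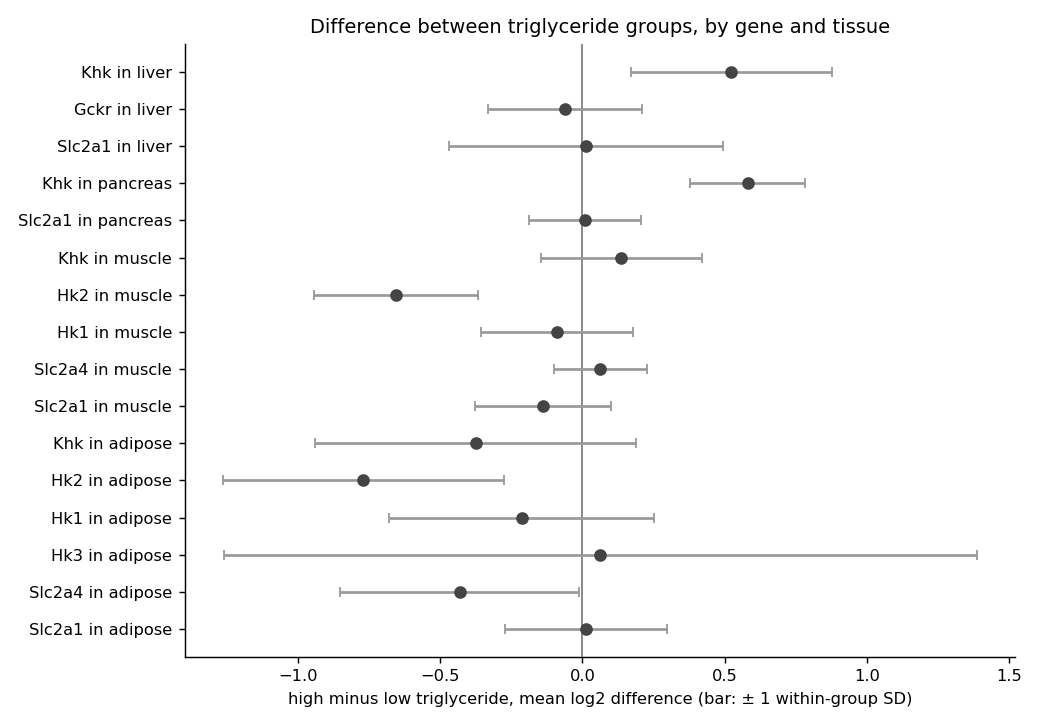
Mean log2 difference, high minus low triglyceride (x axis), for the 16 measured pairs of gene and tissue (y axis), with bars of 1 within-group SD on either side. Khk in liver (0.52) and pancreas (0.58) and Hk2 in muscle (-0.66) and adipose tissue (-0.77) lie more than 1 SD from 0, with Slc2a4 in adipose tissue (-0.43) just beyond it.

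Adipose arrays correlated with each other at a median r of 0.981, the lowest of the 4 tissues, and markers of other cells moved with the groups there. Fast fibre markers (6 genes, all lower in mean, none below 4) had lowest, median and highest values of 3.10, 10.02 and 12.09 in high triglyceride mice, against 3.58, 12.62 and 13.28 in low triglyceride mice. Slow fibre markers (6 genes, all lower in mean, none below 4) had 3.25, 3.47 and 7.85 in high triglyceride mice, against 3.34, 6.18 and 9.42 in low triglyceride mice. Macrophage and neutrophil markers (6 genes, all higher in mean, S100a9 below 4) had 8.21, 8.96 and 10.46 in high triglyceride mice, against 7.70, 8.08 and 9.93 in low triglyceride mice. Their part in the adipose values of Hk2 and Slc2a4 was not tested beyond the relations that follow.

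Over the 16 mice, with values centred within the triglyceride groups, Hk3 in adipose tissue rose with the macrophage and neutrophil list. Hk3 was read there from its highest-mean probe set, the more variable of its 2. Pearson's r was 0.90 and Spearman's rho 0.86 (permutation p = 2e-05, adjusted p = 0.00144 over 72 relations, and for rho p = 0.0001), and r was 0.89 without the 2 mice farthest from the median, 0.88 among high and 0.92 among low triglyceride mice. These 72 relations of members with 12 marker lists were chosen after the data were seen. The other 71 did not pass, and of all 72 there were 8 at an unadjusted p under 0.05. Lowest in p of the 71 was Khk with the lymphocyte list (r = -0.67, rho = -0.57, permutation p = 0.00265, adjusted p = 0.0954, -0.44 without the 2 farthest mice). Hk3 had r = 0.64 (rho = 0.41) with the islet list (permutation p = 0.00974, adjusted p = 0.135, 0.87 without the 2 farthest mice), of which 4 of 5 genes were below 4. Hk2 had r = 0.64 (rho = 0.58) with fast fibre markers (permutation p = 0.0107, adjusted p = 0.135) and Slc2a4 had r = -0.63 (rho = -0.56) with macrophage and neutrophil markers (permutation p = 0.0112, adjusted p = 0.135). Without the 2 farthest mice these were 0.62 and -0.62. Hk2 with the hepatocyte list had r = -0.61 (rho = -0.36, permutation p = 0.00925, adjusted p = 0.135) and -0.23 without the 2 farthest mice. Within the groups its sign differed, with r = -0.94 among high and 0.72 among low triglyceride mice. Hk2 with the adipocyte list had r = -0.58 (rho = -0.44, permutation p = 0.0246, adjusted p = 0.253) and -0.52 without the 2 farthest mice.

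**Figure D4:**
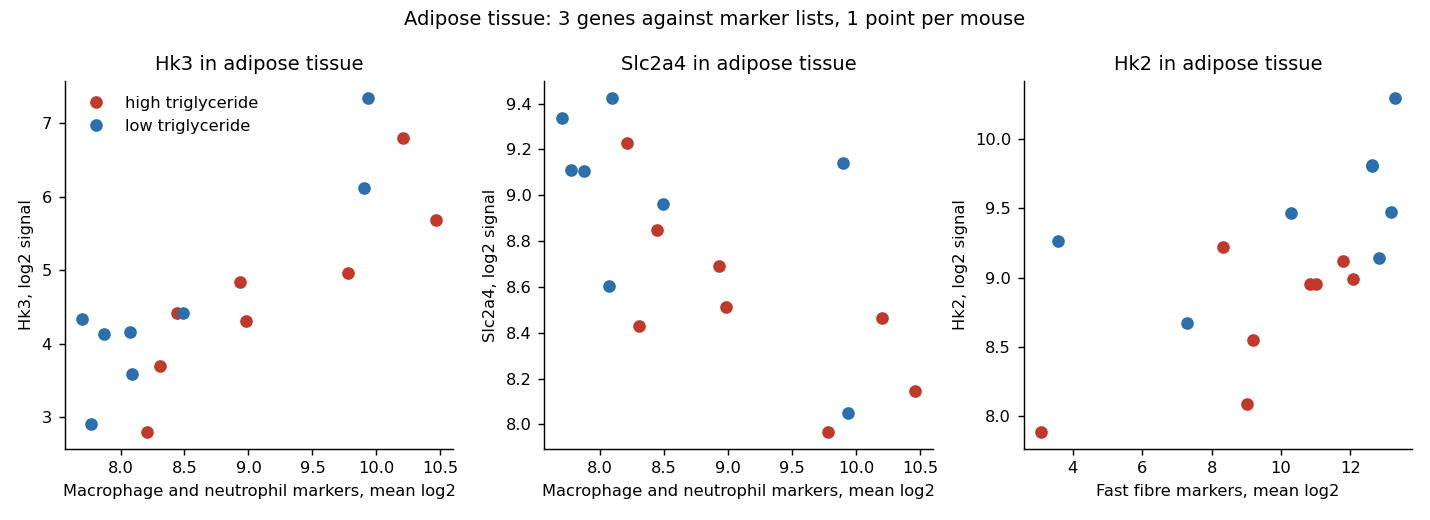
Adipose tissue, 1 point per mouse: log2 signal (y axis) of Hk3 and Slc2a4 against the mean log2 of 6 macrophage and neutrophil markers, and of Hk2 against that of 6 fast fibre markers (x axis), high and low triglyceride mice in 2 colours. Hk3 is highest, at 7.35 and 6.81, in mice whose macrophage and neutrophil markers are at 9.93 and 10.21.

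Among the genes themselves no relation over mice was called. Of 84 pairs of genes within a tissue 66 could be computed, since the others had a constant value. By permutation of Pearson's r 0 passed an adjusted p of 0.05, with 1 at an unadjusted p under 0.05. That pair was Hk3 with Slc2a4 in adipose tissue (r = -0.63, rho = -0.56, permutation p = 0.0144, adjusted p = 0.584, -0.46 without the 2 farthest mice). By Spearman's rho the pair lowest in p was Khk with Slc2a1 in pancreas (rho = -0.74, permutation p = 0.00179, adjusted p = 0.118). Its r was -0.38, with permutation p = 0.176, and -0.24 without the 2 farthest mice. Of 42 relations of a gene between organs of the same mouse 34 could be computed and 0 passed, with 2 at an unadjusted p under 0.05. Slc2a1 in liver with Slc2a1 in adipose tissue was 1 of them (r = 0.56, rho = 0.55, n = 15, permutation p = 0.0301, adjusted p = 0.517) and r was 0.29 without the 2 farthest mice. Hk2 in muscle with Hk2 in adipose tissue, both lower in high triglyceride mice, had r = 0.20 (rho = 0.26, n = 16, permutation p = 0.47, adjusted p = 0.693, 0.24 without the 2 farthest mice).

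For each gene, the transcripts most like it over the arrays of the tissue of its highest mean, and for Khk also over those of pancreas, were ranked by Pearson's r with the groups centred, as a description. For Khk in liver (n = 15, 5649 genes) the most like were Pygl (0.85), liver glycogen phosphorylase, Pklr (0.84), liver pyruvate kinase, Pmm2 (0.83), Elovl6 (0.83), a fatty acid elongase, and Txndc11 (0.83), and the most opposed was Pskh1 (-0.74). For Khk in pancreas (n = 16, 3336 genes) Wdr46 led at 0.88, and Tmed9 was the most opposed at -0.85. Hk2 in muscle (n = 16, 6380 genes) was most like Dnajc13 (0.82) and most opposed to Cdkn1b (-0.85), a cell cycle inhibitor.

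Slc2a4 in muscle was most like Ogdh (0.91), a subunit of the 2-oxoglutarate dehydrogenase of the citric acid cycle, and most opposed to Ppara (-0.80), a nuclear receptor of fatty acid use. Gckr in liver was most like Ube2h (0.92) and most opposed to Ndufv2 (-0.84), a subunit of respiratory complex I. In adipose tissue (n = 16), Hk3 was most like Rilpl2 (0.97), Nceh1 (0.96), Metrnl (0.94) and Fcer1g (0.94), the last a signalling chain of myeloid Fc receptors, Hk1 was most like Nelfb (0.93) and Slc2a1 most like Mzt1 (0.89).

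The wider pathway was followed through 7 lists of transport, GLUT4 traffic, hexose phosphorylation and sensing, fructose and polyol use, glycolysis, glycogen and the pentose phosphate route, of whose 84 genes 73 had a probe set of their own. limma called 0 of the 73 in each tissue, in either direction. At an unadjusted p under 0.05 there were 8 in liver (5 higher, 3 lower), 4 in pancreas (all higher), 3 in muscle (2 higher, 1 lower) and 19 in adipose tissue (2 higher, 17 lower). Over all probe sets the share at that level was 5.36% in liver, 4.62% in adipose tissue, 4.10% in muscle and 2.23% in pancreas. Many probe sets lie near the lowest value, and fitting only those with a mean log2 of 4 or more gave larger shares. These were 2028 of 14816 in liver, 1719 of 19594 in adipose tissue, 1488 of 16047 in muscle and 655 of 10280 in pancreas. The 73 genes include some not measured, so neither background matches them exactly.

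Adipose tissue had the most one-sided lists. Of 58 measured pathway genes there 45 had a lower mean in high triglyceride mice, and the median difference was -0.16, against -0.06 over 10237 measured genes, of which 36.2% were higher. The fast fibre list, at a median of 10.02 in high and 12.62 in low triglyceride mice, moved the same way on these arrays, and the lists hold muscle genes. Its part in the pathway values was not tested. The spread was wide for Pygm, muscle glycogen phosphorylase, which ran over 2.95, 7.14 and 9.09 (lowest, median, highest) in high triglyceride mice, against 3.61, 9.47 and 10.34 in low triglyceride mice (chosen after its values were seen, limma adjusted p = 0.900). Lowest in p were Slc37a4, the glucose 6-phosphate carrier of the endoplasmic reticulum (-0.70 ± 0.17 SE), Mpi, mannose phosphate isomerase (-0.56 ± 0.14), and Gys1, glycogen synthase of muscle and fat (-0.59 ± 0.17), with limma adjusted p of 0.674, 0.815 and 0.864.

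In liver Slc37a4 had the opposite sign, with lowest, median and highest values of 9.47, 9.88 and 10.49 in high triglyceride mice, against 9.27, 9.36 and 9.67 in low triglyceride mice, a difference of 0.46 ± 0.13 (SE, limma adjusted p = 0.802). Mpi (0.29) and Stx4a (-0.32), a syntaxin of GLUT4 vesicle fusion, came next there, at the same adjusted p. The 5 measured genes of fructose and polyol use had a median difference of 0.29 in liver, 4 of them higher, beside a median of -0.01 over the 8005 genes measured.

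The gene of the pathway lists with the lowest p in muscle, where Hk2 was lower, was Gfpt1, which opens the hexosamine route. Its values were 7.96, 8.26 and 8.46 in high triglyceride mice, against 8.38, 8.64 and 8.90 in low triglyceride mice, a difference of -0.45 ± 0.09 (SE, limma adjusted p = 0.429). Txnip, a glucose-induced inhibitor of glucose uptake, had 12.59, 12.73 and 12.85 in muscle of high triglyceride mice, against 11.88, 12.37 and 12.74 in low triglyceride mice, a difference of 0.37 (limma adjusted p = 0.846). Both pairs of ranges overlapped, and neither passed. Pygl (0.54, adjusted p = 0.846) was the third there, with a mean below the line taken as measured.

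In pancreas, where Khk was higher, Txnip had the lowest p of the lists. It ran over 9.55, 9.97 and 11.14 in high triglyceride mice, against 8.52, 9.42 and 10.04 in low triglyceride mice, a difference of 0.93 ± 0.28 (SE), or 1.90-fold (limma adjusted p = 0.795). Pgls (0.32), of the pentose phosphate route, and Gbe1 (0.32), the glycogen branching enzyme, which lay below the line taken as measured, followed at the same adjusted p. Of the 38 measured pathway genes 26 had a higher mean in high triglyceride mice, where 64.4% of all 6215 measured genes did.

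**Figure D5:**
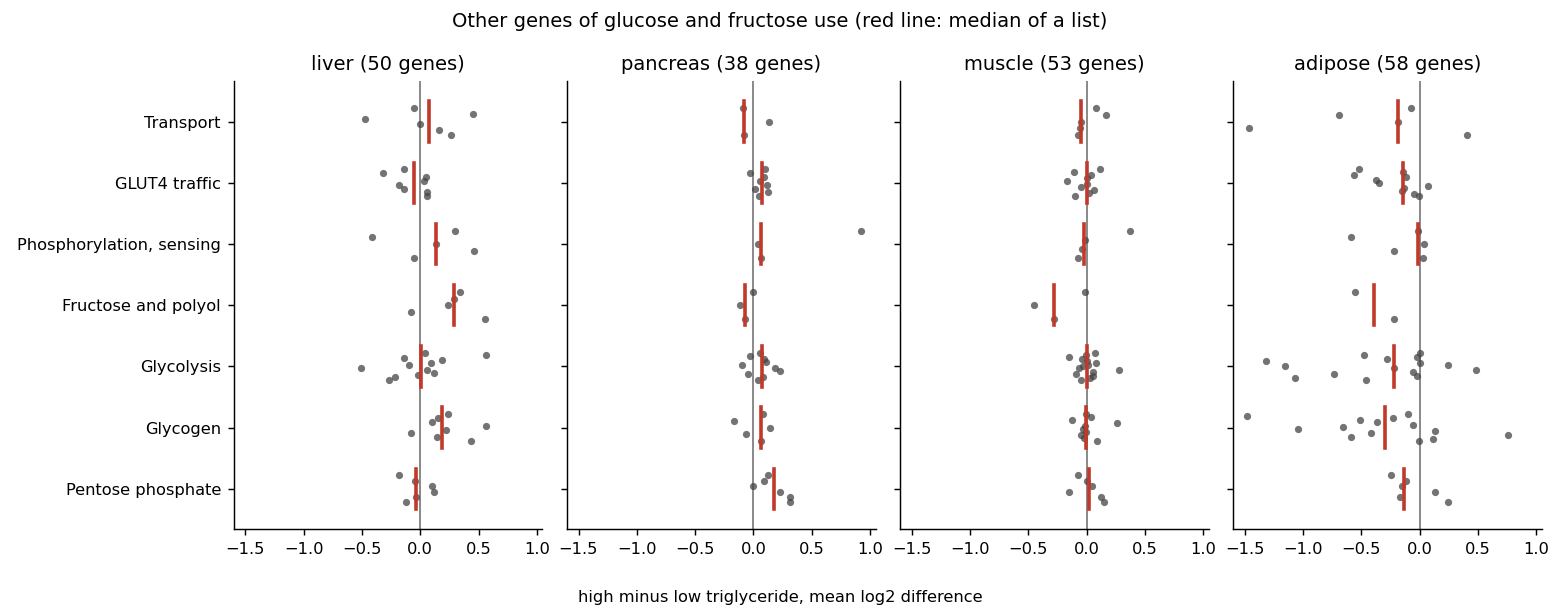
Mean log2 difference, high minus low triglyceride (x axis), of each measured gene of 7 pathway lists (y axis) in 4 tissues, 1 point per gene with the list median in red. In muscle the points lie between -0.45 and 0.37, while in adipose tissue 45 of 58 lie left of it and reach -1.48.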

How the data were processed

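Expression was measured on Affymetrix mouse genome arrays. The authors made log2 values with GCRMA and deposited them as 1 table. The lowest value differs between tissues, so tissues appear to have been processed separately, and tests were made within a tissue. Of 45101 probe sets, 64 controls were left out, 34945 of the 45037 tested had 1 gene, 932 several and 9160 none named here. Each gene was read from its highest-mean probe set annotated to it alone. limma 3.58.1 (R 4.3.3, lmFit and eBayes, Benjamini-Hochberg) compared high with low triglyceride mice. The fit was tested on simulated data. Relations over mice used 100000 resamples within the groups, two-sided, on centred values, adjusted within a family. The members and lists were chosen with earlier results of these data known. Named pathway genes are those past the threshold or, where fewer than 3 passed, the 3 of lowest p in a tissue. The number of arrays limits the precision, and within a tissue each array is a separate mouse. The deposited trait and genotype table was not used here, since it pairs no mouse with an array.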

Additional observations from a re-analysis of the deposited data

Results flagged for a closer look

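In 10 of 32 groups tested (16 pairs of gene and tissue, 2 groups each) a single array stood apart from the rest by its gap to the nearest array. Chance flags about 1 in 20 groups, and gcRMA values shared by several arrays narrow a range. For Khk these were high triglyceride replicate 2 in pancreas (4.17, nearest 4.6), high triglyceride replicate 6 (11.86, nearest 10.99) and low triglyceride replicate 2 (9.96, nearest 10.31) in liver, low triglyceride replicate 3 in muscle (5.43, nearest 5.98) and low triglyceride replicate 7 in adipose tissue (7.33, nearest 6.23). For Slc2a1 they were high triglyceride replicate 2 (7.13, nearest 7.72) and low triglyceride replicate 3 (6.41, nearest 7.63) in liver and low triglyceride replicate 5 in pancreas (6.79, nearest 6.39). Hk1 in adipose tissue had low triglyceride replicate 1 at 7.14, nearest 7.84. Slc2a4 in muscle had high triglyceride replicate 5 at 11.68, nearest 11.37.

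The liver array left out, low triglyceride replicate 7, carried signal that no other liver array did. Hk1 read 6.18 there, against 2.99 to 3.52, Hk2 9.61, against 2.74 to 3.16, and Slc2a4 8.74, against 2.30 on all 15 other liver arrays.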

How the results depend on the processing

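Of the 16 measured differences 10 kept their sign under every alternative run, among them Khk in pancreas and liver and Hk2 in muscle and adipose tissue. The other 6 (Hk3 in adipose tissue, Gckr in liver and Slc2a1 in all 4 tissues) changed sign under at least 1 alternative. The genes were chosen with these differences known, and most alternatives left out 1 array of the same data. A kept sign is therefore a description and no support for a difference. Leaving out 1 array at a time gave 0.55 to 0.66 for Khk in pancreas, 0.38 to 0.59 for Khk in liver and -0.71 to -0.58 for Hk2 in muscle. Without the arrays rich in hepatocyte markers, which held the lowest Hk2 values and were all of the high group, Hk2 was -0.44 in adipose tissue. Keeping liver low replicate 7 moved Khk in liver to 1.20. Within a group a replicate number is the same mouse in each tissue, but in the high and low groups it stands for different mice. It thus pairs no high with a low triglyceride mouse (median correlation of same-numbered deviations between -0.05 and 0.11 by tissue). With the replicate block limma called 4 probe sets in adipose tissue, all lower and none of a member, and 0 elsewhere. Leaving out 1 array gave 0 to 1 calls in pancreas, 0 to 2 in muscle, 0 to 1 in adipose tissue and 0 in liver. The 1 in pancreas was Khk, without high triglyceride replicate 2, in a contrast by which the gene was chosen. Those in muscle came without high triglyceride replicate 3 (2) or low triglyceride replicate 3 (1) and that in adipose tissue without high triglyceride replicate 1 (1), none of a member. The other settings called 0, and no pathway gene was called in any.

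Across tissues, quantile normalization of all arrays together moved Hk1 (adipose tissue minus muscle) to 2.05, Hk2 (muscle minus adipose tissue) to 2.54, Slc2a4 to 3.11 and Hk3 (adipose tissue minus liver) to 1.06, and reversed Slc2a1 (adipose tissue minus muscle) to -0.16, as did percentile ranks (-0.77 points). The mean of all probe sets gave 2.23 for Hk1, and liver low replicate 7 gave 7.25 for Gckr, liver minus pancreas. Of the adipose marker relations 2 passed with quantile normalization, 2 without the farthest mice and 1 to 2 without 1 mouse. The cause was not tested. Signals near the lowest value limit what can be read of Hk1, Hk2, Hk3, Gckr and Slc2a4 outside the tissues named.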
